A study of Arabidopsis thaliana with 9 samples.

Results

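The genes described here are 10 regulators of vegetative phase change and flowering in Arabidopsis thaliana: the squamosa promoter binding protein-like genes SPL3, SPL4, SPL5, SPL9 and SPL15, and the APETALA2-like genes AP2, TOE1, TOE2, SMZ and SNZ. They were chosen by locus code, and all 10 were found among the 20777 loci of the table. ATH1 arrays (Affymetrix) gave transcript levels for the vegetative part of seedlings at growth stage 1.04, an early rosette stage. The 9 arrays were 3 biological repeats each of the SHORT-ROOT mutant shr-5, the SCARECROW mutant scr-3 and the wild type (WT), all in the Col-0 accession, on MS medium at 22 °C in days of 16 h light and 8 h dark. Each mutant is represented by a single allele, and the number of plants in an extract is not stated in the labels. SHORT-ROOT (SHR) and SCARECROW (SCR) encode GRAS transcription factors that pattern the root ground tissue and the bundle sheath, and the series title puts the question of their part in leaf growth.

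A plant shoot passes from a juvenile to an adult phase as the microRNA miR156 declines with age. Its targets, transcripts of SPL genes, then accumulate and the SPL proteins promote adult leaf traits and flowering, in part by activating genes of a second microRNA, miR172. That microRNA acts on the AP2-like transcripts, whose proteins repress flowering and adult traits of the epidermis, both by cleavage and by reducing translation. The arrays report the target transcripts and not the microRNAs or the proteins, and the 4 microRNA genes looked for (MIR156A, MIR156C, MIR172A and MIR172B) were not measured here.

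Of the 10 genes, AP2 was higher in shr-5 than in WT, by 1.55-fold, and no other member passed the threshold in any of the 3 comparisons (limma, Benjamini-Hochberg adjusted p under 0.05 over all loci). Values are log2 RMA values, and changes are differences of their group means. In scr-3 against WT no member passed. The 5 SPL genes did not move in one direction in either mutant. One array bears on most of these values: shr-5 replicate 3 correlated with the other arrays at r = 0.970 to 0.979 across loci, against 0.983 to 0.997 among the other 8. It was the lowest or the highest of the 9 arrays for 7 of the 10 members and for 41.4% of all loci. The values are therefore also given without it.

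SHR (AT4G37650) fell in shr-5 against WT by 1.89 on a log2 scale (limma adjusted p = 2.87e-05). It had log2 values of 4.70, 4.73 and 4.89 on shr-5 arrays, 6.40, 6.23 and 6.19 on scr-3 arrays and 6.61, 6.57 and 6.81 on WT arrays. SCR (AT3G54220) lay at 7.60, 7.43 and 7.35 in shr-5, 7.63, 7.44 and 7.13 in scr-3 and 7.96, 7.99 and 7.94 in WT. Against WT, SCR fell in shr-5 by 0.51 (limma adjusted p = 0.0399), where 3.79% of all loci fell. That call was lost in 6 of the 15 alternatives. In scr-3 the change was -0.57 (limma adjusted p = 0.110). The SCR level thus did not separate the mutants and leaves the scr-3 label unchecked. Where the probes lie relative to the mutations is not stated in the labels. Of 5 leaf photosynthesis markers 1 was measured, RCA, the gene of Rubisco activase, at 13.63 to 13.76 in shr-5, 13.69 to 13.83 in scr-3 and 13.79 to 13.86 in WT. The 6 floral markers AP1, AP3, PI, AG, SEP3 and LFY lay at 3.26 to 4.35 in shr-5, 3.31 to 4.32 in scr-3 and 3.28 to 4.38 in WT, and 0 of 6 passed in any comparison (limma). In shr-5 against WT the floral markers ran from -0.11 for SEP3 to 0.076 for AP3 (limma adjusted p = 0.558 and 0.698).

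**Figure D1:**
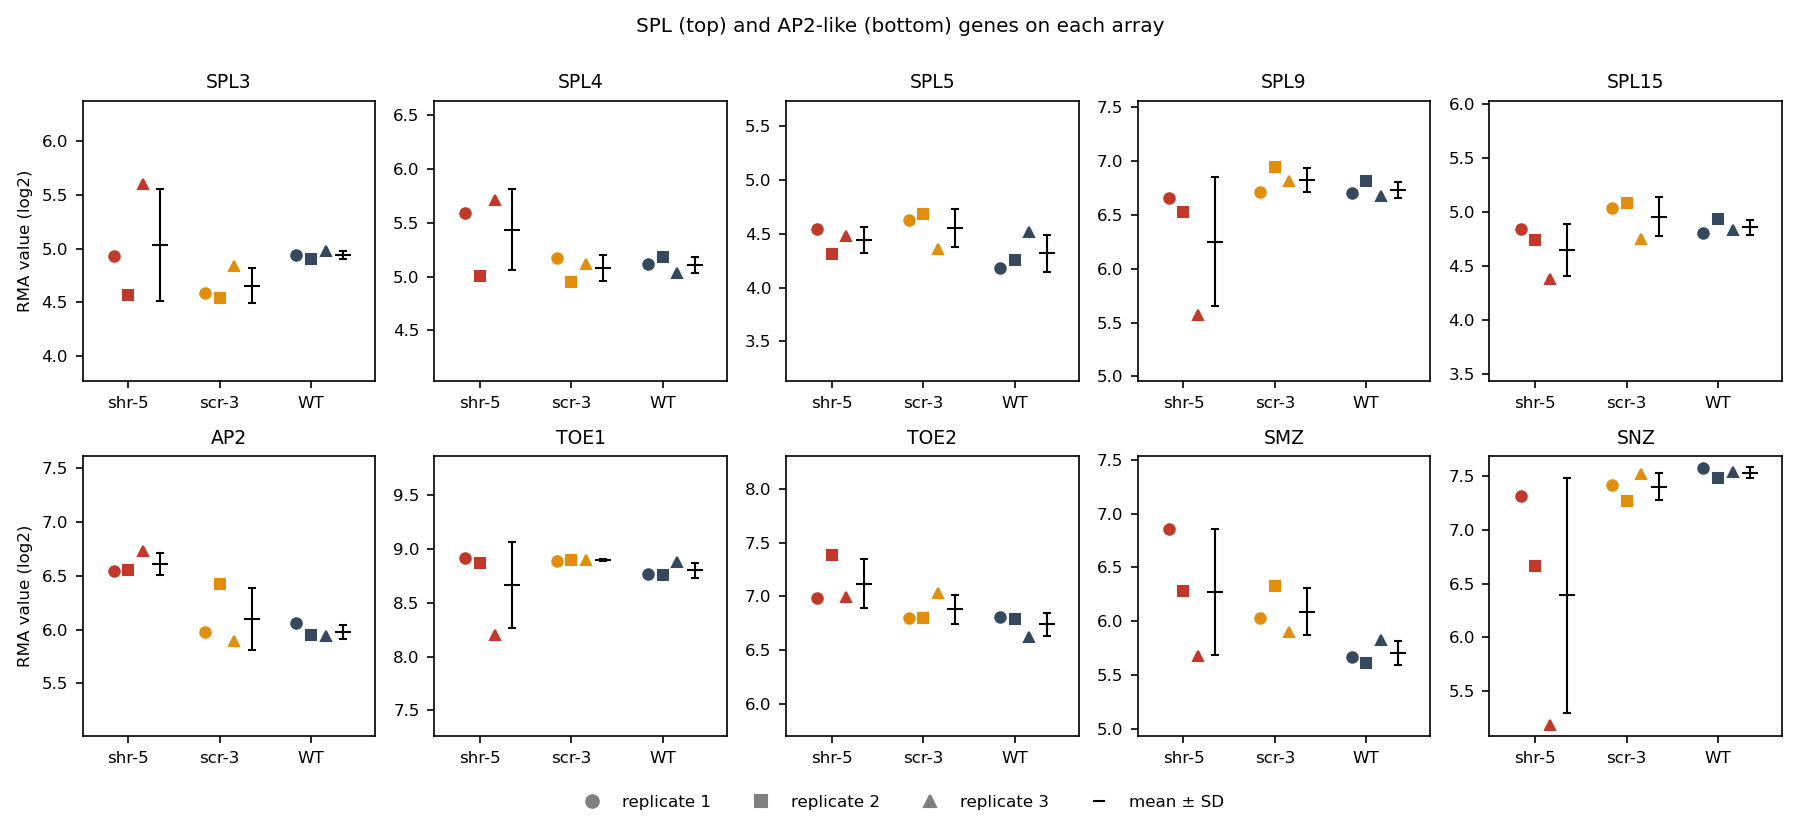
RMA values (log2) of the 5 SPL genes (top) and 5 AP2-like genes (bottom) on each of the 9 arrays, by genotype; symbols mark replicates 1 to 3, and the bar gives the mean ± SD of 3 arrays. Every panel spans the same number of log2 units. On shr-5 replicate 3, SPL9, TOE1 and SNZ lie below and SPL3 lies above all other arrays, while AP2 is high on all 3 shr-5 arrays.

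SPL3, SPL4 and SPL5 encode small proteins that consist largely of the DNA-binding SBP domain and promote floral meristem identity. SPL3 (AT2G33810) had log2 values of 4.93, 4.57 and 5.60 on shr-5 arrays, 4.59, 4.54 and 4.84 on scr-3 arrays and 4.94, 4.90 and 4.98 on WT arrays. The 3 scr-3 arrays lay below all WT arrays, and the shr-5 arrays lay on both sides of WT. The change was 0.096 in shr-5 (SE 0.22, limma adjusted p = 0.828) and -0.28 in scr-3 (SE 0.22, limma adjusted p = 0.717). Without shr-5 replicate 3 the shr-5 value had the opposite sign, -0.19 (limma adjusted p = 0.374).

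SPL4 (AT1G53160) lay at 5.59, 5.01 and 5.71 in shr-5, 5.18, 4.95 and 5.12 in scr-3 and 5.12, 5.18 and 5.03 in WT. Replicates 1 and 3 of shr-5 stood above every other array, and replicate 2 stood below the WT arrays. The change in shr-5 against WT was 0.33 (SE 0.17, limma adjusted p = 0.262). It was 0.54 without shr-5 replicate 2, where it passed (limma adjusted p = 0.0237), and 0.19 without shr-5 replicate 3 (limma adjusted p = 0.466). In scr-3 the change was -0.029 (95% interval -0.40 to 0.34, limma adjusted p = 0.975).

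SPL5 (AT3G15270) had the lowest spread of group means among the SPL members, with values of 4.54, 4.31 and 4.48 in shr-5, 4.63, 4.68 and 4.36 in scr-3 and 4.18, 4.26 and 4.51 in WT. The 3 groups overlapped. In shr-5 the difference from WT was 0.12 (95% interval -0.15 to 0.40, limma adjusted p = 0.573), and in scr-3 it was 0.23 (95% interval -0.037 to 0.51, limma adjusted p = 0.534).

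SPL9 and SPL15 encode larger SBP-domain proteins that act on the rate of leaf initiation, on leaf shape and on the floral transition. SPL9 (AT2G42200) lay at 6.66, 6.53 and 5.57 in shr-5, 6.72, 6.95 and 6.81 in scr-3 and 6.70, 6.82 and 6.67 in WT. All 3 shr-5 arrays were below every WT and scr-3 array, and replicate 3 lay furthest down, at -1.16 from the WT mean against -0.069 and -0.20 for replicates 1 and 2. This change was -0.48 against WT (SE 0.24, limma adjusted p = 0.265) and -0.57 against scr-3 (SE 0.24, limma adjusted p = 0.280). Without shr-5 replicate 3 these values were -0.14 (limma adjusted p = 0.393) and -0.23 (limma adjusted p = 0.234). In scr-3 against WT the change was 0.094 (SE 0.24, limma adjusted p = 0.943).

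SPL15 (AT3G57920) had values of 4.84, 4.74 and 4.38 in shr-5, 5.04, 5.08 and 4.75 in scr-3 and 4.81, 4.93 and 4.83 in WT. The groups overlapped, and the lowest of the 9 values was again that of shr-5 replicate 3. Against WT the value in shr-5 was -0.21 (SE 0.13, limma adjusted p = 0.382), or -0.069 without replicate 3 (limma adjusted p = 0.733). In scr-3 it was 0.099 (SE 0.13, limma adjusted p = 0.867).

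The AP2-like proteins carry the AP2 type of DNA-binding domain and repress the floral transition. AP2 (AT4G36920), which also specifies floral organ identity, had log2 values of 6.54, 6.55 and 6.73 on shr-5 arrays, 5.97, 6.42 and 5.89 on scr-3 arrays and 6.06, 5.95 and 5.94 on WT arrays. All 3 shr-5 arrays were above every scr-3 and WT array, and replicate 2 of scr-3 stood apart from the other scr-3 arrays. The log2 rise of AP2 in shr-5 over WT was 0.63 (SE 0.13, 95% interval 0.33 to 0.93, 3 against 3 arrays, limma adjusted p = 0.0242). Without shr-5 replicate 3 the rise was 0.57 (limma adjusted p = 0.0301), so it does not rest on that array. Leaving out shr-5 replicate 2 or any 1 of the WT arrays ended the call, with a change of 0.61 to 0.67 and an adjusted p of up to 0.0889 (limma). In scr-3 against WT the change was 0.12 (SE 0.13, limma adjusted p = 0.834). The difference between the mutants was 0.51 (95% interval 0.21 to 0.81), which did not pass (limma adjusted p = 0.101).

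Since AP2 is also a floral gene, floral markers were set beside it. The summed linear level of the 6 floral markers was 91.4 to 99.9 in shr-5, 93.0 to 102 in scr-3 and 92.8 to 96.8 in WT, and the groups overlapped. All 6 markers were among the lowest 40% of loci by mean value, where the values may be background, so they do not test floral tissue as a source of the AP2 difference. In bulk tissue, more cells with a transcript and more transcript per cell cannot be told apart. Among 5 root markers, PYK10, a beta-glucosidase gene, was higher in shr-5 than in WT by 0.84 (SE 0.080, limma adjusted p = 7.64e-04), and the other 4 did not pass in any comparison, with the lowest value in shr-5 against WT at EXPA7 (-0.12, limma adjusted p = 0.785). Of those 4, EXPA7, TIP2;3 and PRX72 were also among the lowest 40% of loci, and COBL9 was not. The summed linear level of the root list, which PYK10 dominates, was 3210 to 3417 in shr-5, 2155 to 2498 in scr-3 and 1794 to 1997 in WT. Its part in the AP2 result was not tested.

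TOE1 and TOE2, targets of miR172, repress flowering and adult trichome traits. TOE1 (AT2G28550) lay at 8.92, 8.87 and 8.20 in shr-5, 8.89, 8.90 and 8.90 in scr-3 and 8.77, 8.76 and 8.88 in WT. The scr-3 arrays differed from one another by little (SD 0.0078) and were all above WT, but by 0.095 (95% interval -0.28 to 0.47, limma adjusted p = 0.905). In shr-5 the value was -0.14 (limma adjusted p = 0.668), and it was 0.093 without replicate 3 (limma adjusted p = 0.475), so its sign rests on that array.

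TOE2 (AT5G60120) had values of 6.98, 7.39 and 6.99 in shr-5, 6.80, 6.80 and 7.03 in scr-3 and 6.81, 6.79 and 6.62 in WT. The shr-5 arrays were all above WT and overlapped with scr-3. TOE2 differed from WT by 0.38 in shr-5 (95% interval 0.10 to 0.66), which did not pass with all arrays (limma adjusted p = 0.0993) or without replicate 3 (0.44, limma adjusted p = 0.0557). In scr-3 the change was 0.14 (SE 0.12, limma adjusted p = 0.772).

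SMZ and SNZ are a pair of related flowering repressors that share the miR172 target site with the other AP2-like members. SMZ (AT3G54990) lay at 6.85, 6.28 and 5.68 in shr-5, 6.03, 6.33 and 5.90 in scr-3 and 5.67, 5.61 and 5.83 in WT. Replicates 1 and 2 of shr-5 and all 3 scr-3 arrays were above every WT array, and shr-5 replicate 3 lay within the WT range. The shr-5 arrays averaged 0.57 above WT (SE 0.25, limma adjusted p = 0.205). Without replicate 3 it was 0.86 (SE 0.17) and passed (limma adjusted p = 0.0119), and without replicate 1 it was 0.28 (limma adjusted p = 0.417). In scr-3 the change was 0.38 (95% interval -0.19 to 0.95, limma adjusted p = 0.655).

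SNZ (AT2G39250) had values of 7.31, 6.67 and 5.19 in shr-5, 7.42, 7.27 and 7.52 in scr-3 and 7.57, 7.48 and 7.54 in WT. All 3 shr-5 arrays were below WT, and they spread over more than the whole range of the other groups, with an SD of 1.09 in shr-5 against 0.13 in scr-3 and 0.050 in WT (n = 3 each). The change in shr-5 was -1.14 (SE 0.43, limma adjusted p = 0.140), the largest of the 10 genes in size. It was -0.54 without replicate 3 (limma adjusted p = 0.0609) and -1.60 without replicate 1, where it passed (limma adjusted p = 0.0300). Against scr-3 the change in shr-5 was -1.01 (limma adjusted p = 0.279). In scr-3 against WT it was -0.13 (95% interval -1.09 to 0.84, limma adjusted p = 0.958), an interval that allows a 2-fold fall.

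**Figure D2:**
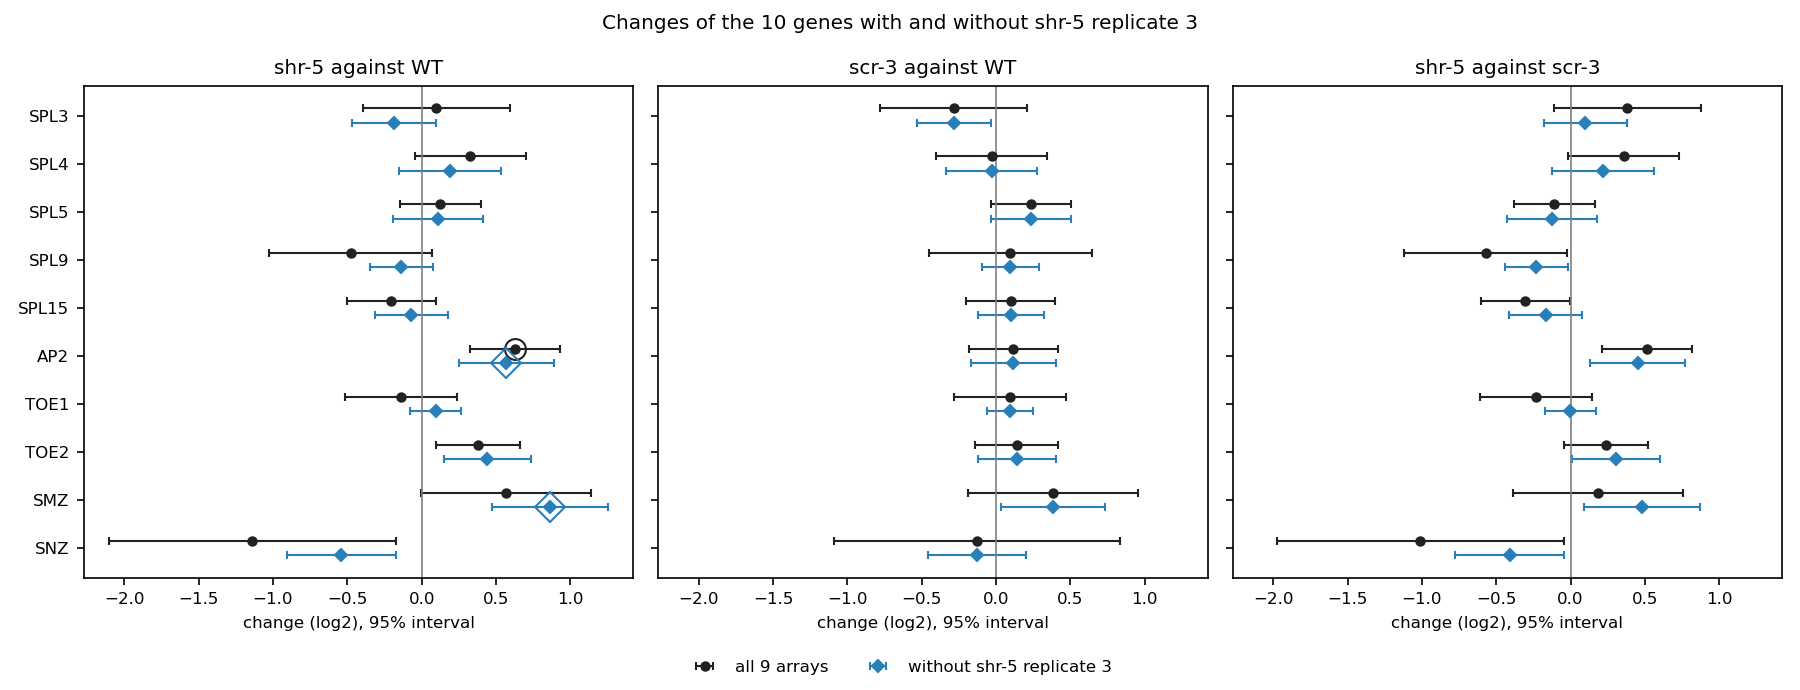
Change on the log2 scale with its 95% interval for the 10 genes in shr-5 against WT, scr-3 against WT and shr-5 against scr-3, with all 9 arrays (black circles) and without shr-5 replicate 3 (blue diamonds); larger open outlines mark values past the threshold. AP2 passes in shr-5 against WT in both fits, SMZ passes without shr-5 replicate 3 at 0.86, and the intervals of SPL9 and SNZ narrow when that array is left out.

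In counts, 1 of 10 members passed in shr-5 against WT, where 8.14% of all loci did, so the share is near that of the table. That member was higher, as were 4.35% of loci, while 3.79% were lower; at an unadjusted p under 0.05 there were 3 of 10 members (AP2, TOE2 and SNZ) and 24.6% of loci (limma). No member of 10 passed in scr-3 against WT (0.366% of all loci did), and at an unadjusted p under 0.05 there were again 0 of 10, against 11.0% of all loci (limma). Between shr-5 and scr-3 the counts were 0 of 10 members and 1.34% of loci, and at an unadjusted p under 0.05 they were 4 of 10 members (SPL9, SPL15, AP2 and SNZ) and 16.7% of loci (limma). Without shr-5 replicate 3, 2 of 10 members passed in shr-5 against WT, AP2 and SMZ, where 12.7% of loci did. The arrays of shr-5 and WT did not overlap for AP2 and TOE2 (higher, as for 14.3% of all loci) and for SPL9 and SNZ (lower, as for 15.1%), 4 of 10 members against 29.3% of loci in either direction. For scr-3 and WT this held for TOE1 and SMZ (higher, 11.5% of loci) and SPL3 (lower, 10.6%), 3 of 10 against 22.0%. For shr-5 and scr-3 it held for AP2 (higher, 10.2% of loci) and SPL9 (lower, 10.8%), 2 of 10 against 21.0%.

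The median change of the 5 SPL members was 0.096 in shr-5 and 0.094 in scr-3, and that of the 5 AP2-like members was 0.38 in shr-5 and 0.12 in scr-3, all against WT. The medians over all loci were -0.012 in shr-5 and 0.0050 in scr-3. Without shr-5 replicate 3 the median of the 5 SPL members in shr-5 against WT had the opposite sign, -0.069. That of the 5 AP2-like members was then 0.44. Both mutant comparisons share the WT arrays. The members varied more between the 3 shr-5 arrays than between the arrays of the other groups. Their median SD was 0.39 in shr-5, 0.15 in scr-3 and 0.071 in WT. The median SD of all loci was 0.13 in shr-5, 0.10 in scr-3 and 0.096 in WT. The shr-5 SDs include replicate 3, the lowest or the highest of the 9 arrays for 7 of the 10 members and for 41.4% of all loci. No SD was taken without that array. In scr-3 against WT the 95% intervals of 9 members lay within a 2-fold change in either direction, all but that of SNZ. In shr-5 this held for 7 members, all but SPL9, SMZ and SNZ.

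By mean value over the 9 arrays, AP2, TOE1, TOE2, SMZ, SNZ and SPL9 were above the lowest 40% of loci, and SPL3, SPL4, SPL5 and SPL15 were not. RMA values carry no call of presence, and those of different probes do not rank transcripts, so detection cannot be read from them.

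The loci whose pattern was most like that of SPL9 and SNZ, the member of each family with the largest range of group means, were taken by the root-mean-square difference of centred log2 values over the 9 arrays. For SPL9 they were AT1G27120 (0.105), CRR3 (0.105) and AT2G21830 (0.106), against a median of 0.401 over all loci. On shr-5 replicate 3 these had 6.67, 7.91 and 5.59, the lowest of the 9 arrays in each case. For SNZ they were AT3G52740 (0.149), BCAT4 (0.150), a gene of methionine-derived glucosinolate synthesis, and NHL12 (0.187), against a median of 0.735. BCAT4 lay at 10.81, 10.62 and 8.92 in shr-5, 11.01, 10.79 and 11.17 in scr-3 and 11.42, 11.36 and 11.24 in WT. The likeness to both members thus includes a low value on the array that stands apart, and 0 of these 6 loci passed in any comparison with all arrays (limma). Without shr-5 replicate 3, 3 of them passed in shr-5 against WT, where 12.7% of all loci did: BCAT4 at -0.63 (limma adjusted p = 0.00898), NHL12 at -0.57 (limma adjusted p = 0.0215) and CRR3 at -0.34 (limma adjusted p = 0.0354). These 3 also passed without shr-5 replicate 1, where BCAT4 was -1.57, NHL12 -1.49 and CRR3 -0.79 (limma). The loci were picked on these same arrays for likeness to members that were lower in shr-5, so their falls there follow from the choice.

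Other targets of the same microRNAs showed no called change. Of 7 loci in this list, SPL2, SPL6, SPL10, SPL11 and TOE3 were measured, and 0 of 5 passed in any comparison (limma), with 0 of 5 at an unadjusted p under 0.05 in each. Of all loci, 8.14% passed in shr-5 against WT, 0.366% in scr-3 against WT and 1.34% between the mutants. At an unadjusted p under 0.05 these shares were 24.6%, 11.0% and 16.7% (limma), so counts of 0 in 5 loci do not set the list apart. The median change of the 5 measured genes was 0.027 in shr-5 and -0.042 in scr-3. SPL2 had the largest positive value in shr-5, 0.18 (limma adjusted p = 0.594), and SPL11 the largest negative one, -0.28 (limma adjusted p = 0.499). On shr-5 replicate 3 SPL2 was the highest of the 9 arrays (7.99) and SPL11 the lowest (4.27). Without that array the values were -0.057 for SPL2 and -0.035 for SPL11 (limma adjusted p = 0.768 and 0.925).

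Among SBP-box genes that miR156 does not target, 2 of 5 measured loci rose in shr-5, where 4.35% of all loci rose. AT1G76580 had values of 7.78, 7.68 and 7.93 in shr-5, 7.48, 7.32 and 7.37 in scr-3 and 7.15, 7.15 and 6.99 in WT, with no overlap between any of the groups. It rose in shr-5 against WT by 0.70 (SE 0.090, limma adjusted p = 0.00315), and it lay higher in scr-3 by 0.29 (limma adjusted p = 0.239). SPL14, a gene known for its part in sensitivity to a fungal toxin and in plant form, lay at 9.44, 9.43 and 9.88 in shr-5, 9.27, 9.23 and 9.41 in scr-3 and 9.08, 9.09 and 9.17 in WT. SPL14 rose in shr-5 by 0.47 (SE 0.12, limma adjusted p = 0.0479), a call lost in 9 of the 15 alternatives (adjusted p up to 0.142). SPL1, SPL7, a regulator of copper homeostasis, and SPL12 did not pass, and SPL1 had the smallest value, 0.0084, whose sign turned with the processing. The median of the 5 was 0.25 in shr-5 and 0.20 in scr-3. In scr-3 against WT 0 of 5 passed, where 0.366% of all loci did. At an unadjusted p under 0.05 there was 1 of 5, against 11.0% of all loci (limma).

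**Figure D3:**
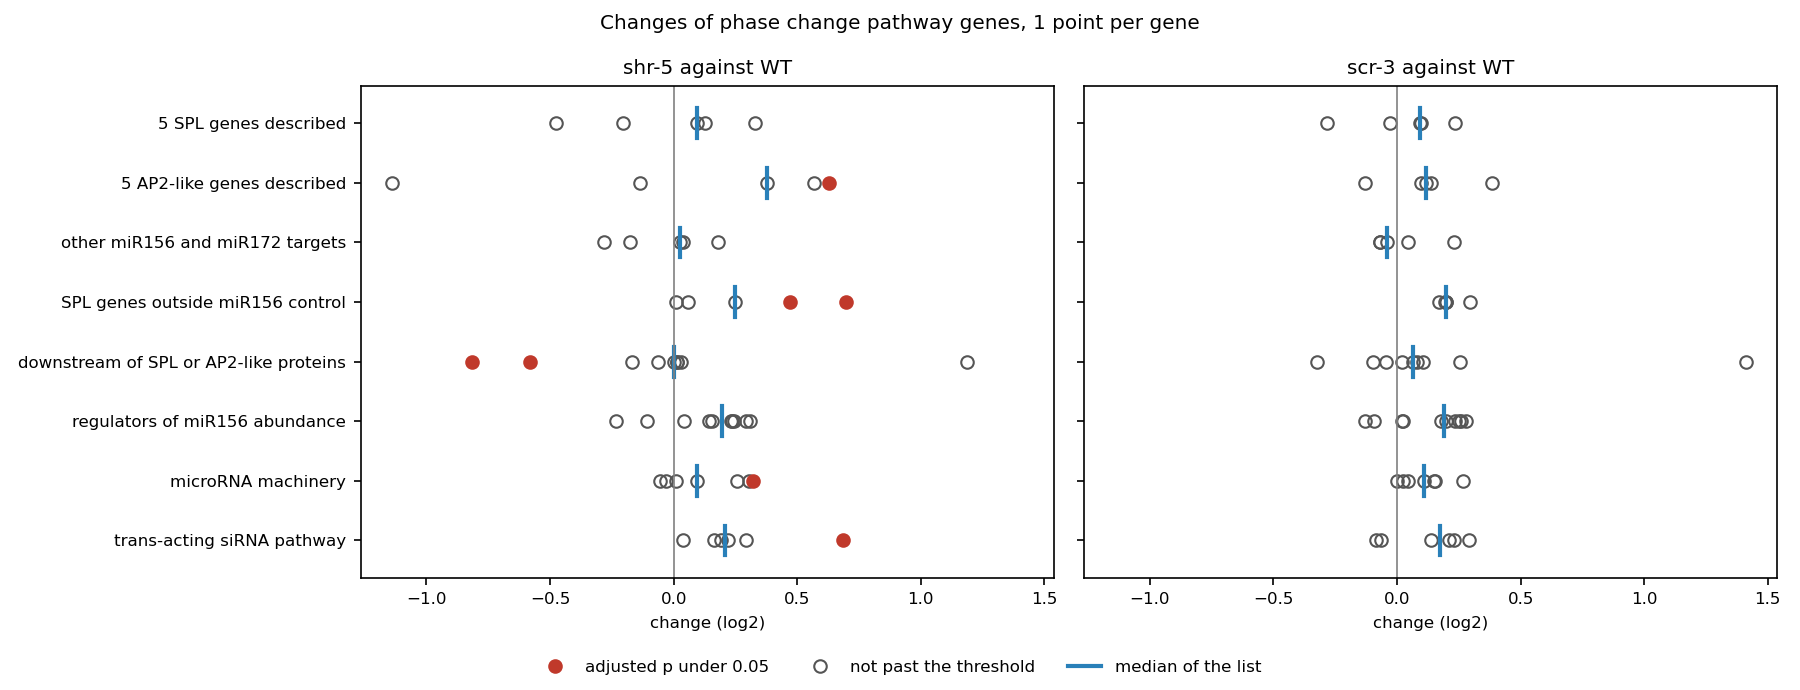
Change on the log2 scale of each measured gene of the phase change pathway in shr-5 against WT (left) and scr-3 against WT (right), by list; filled red points passed the threshold and blue bars are the medians. In shr-5 7 genes passed, AP2, SPL14, AT1G76580, DCL1 and ARF4 on the higher side and SOC1 and TRY on the lower side, and in scr-3 none did. From top to bottom the lists hold 5, 5, 5, 5, 9, 10, 7 and 6 measured genes. Of all loci, 8.14% passed in shr-5 (4.35% higher and 3.79% lower) and 0.366% in scr-3.

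Of the genes that SPL or AP2-like proteins are known to regulate, 9 of 10 were measured, and 2 fell and 0 rose in shr-5, where 3.79% of all loci fell. SOC1, a MADS-box gene that promotes flowering and is bound by SPL9 and by AP2-like repressors, had values of 5.78, 6.16 and 6.03 in shr-5, 7.09, 6.68 and 6.84 in scr-3 and 6.76, 6.57 and 7.09 in WT. The shr-5 arrays were all below the other groups, which overlapped. SOC1 fell in shr-5 by 0.81 against WT (SE 0.16, limma adjusted p = 0.0185) and by 0.88 against scr-3 (limma adjusted p = 0.0393, where 0.578% of loci were lower), and without shr-5 replicate 3 by 0.83 and 0.90 (limma adjusted p = 0.0155 and 0.0292). Against WT the call did not hold without WT replicate 1 or 3 (limma adjusted p up to 0.0598). Against scr-3 it was lost in 8 of 15 alternatives, the replicate block among them (limma adjusted p up to 0.135).

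TRY, an inhibitor of trichome formation that SPL9 activates, had values of 5.43, 5.17 and 5.07 in shr-5, 5.78, 5.37 and 5.30 in scr-3 and 5.82, 5.75 and 5.85 in WT. It fell in shr-5 by 0.58 (SE 0.14, limma adjusted p = 0.0339), and in scr-3 its change was -0.32 (limma adjusted p = 0.428). The call in shr-5 was lost without scr-3 replicate 2, shr-5 replicate 2 or any 1 of the WT arrays (adjusted p up to 0.110). DFR, an anthocyanin synthesis gene that SPL9 represses, had values of 11.59, 10.56 and 7.95 in shr-5, 11.16, 9.87 and 9.73 in scr-3 and 9.48, 8.08 and 8.97 in WT. Its change in shr-5 was 1.19 (SE 0.83, limma adjusted p = 0.425). Without shr-5 replicate 3 it was 2.23 and passed (limma adjusted p = 0.0191), where 12.7% of all loci did. In scr-3 against WT, DFR had a value of 1.41 (limma adjusted p = 0.602). The other 6 genes, FUL, AGL42, AP1, LFY, FT and AG, had values of -0.17 to 0.031 in shr-5 and did not pass. All 6, and TRY as well, were among the lowest 40% of loci by mean value, where the values may be background. In scr-3 against WT 0 of 9 passed, where 0.366% of all loci did. At an unadjusted p under 0.05 there was 1 of 9, against 11.0% of all loci (limma).

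The regulators of miR156 abundance, among them the sugar sensor gene HXK1, Polycomb genes and the MADS-box genes AGL15 and AGL18, held no called change: 0 of 10 passed in either mutant against WT (limma, with 1 of 10 at an unadjusted p under 0.05 in each). Of all loci, 8.14% passed in shr-5 and 0.366% in scr-3, with 24.6% and 11.0% at an unadjusted p under 0.05 (limma). The median change of the 10 regulators was 0.19 in shr-5 and 0.19 in scr-3. The largest positive value in shr-5 was that of AGL18, 0.31 (limma adjusted p = 0.0874), and the largest negative one that of the Polycomb gene FIE, -0.23 (limma adjusted p = 0.275). HXK1, named here after its values were seen, lay at 9.86, 9.59 and 9.04 in shr-5, 9.72, 9.43 and 9.35 in scr-3 and 9.30, 9.20 and 9.31 in WT. It had a value of 0.23 in shr-5 with all arrays (limma adjusted p = 0.495). Without shr-5 replicate 3 it rose by 0.46 (limma adjusted p = 0.0404), where 12.7% of all loci passed.

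Of 7 genes of microRNA processing and action, DCL1, the nuclease that releases plant microRNAs, rose in shr-5, where 4.35% of all loci rose. Its values were 7.91, 7.81 and 7.97 in shr-5, 7.76, 7.78 and 7.64 in scr-3 and 7.48, 7.63 and 7.61 in WT. The rise of 0.32 (SE 0.079, limma adjusted p = 0.0400) passed in 1 of 15 alternatives and had an adjusted p of up to 0.122 in the others. HYL1, a partner of DCL1, had the largest negative value of the list in shr-5, -0.054 (limma adjusted p = 0.841). The median of the list was 0.094 in shr-5 and 0.11 in scr-3. In scr-3 against WT 0 of 7 passed, where 0.366% of all loci did. At an unadjusted p under 0.05 there was 1 of 7, against 11.0% of all loci (limma).

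A pathway of trans-acting small RNAs also restrains phase change, by limiting the auxin response factor transcripts ARF3 and ARF4. ARF4 had values of 7.29, 7.42 and 7.36 in shr-5, 6.82, 6.56 and 6.45 in scr-3 and 6.70, 6.65 and 6.67 in WT. The shr-5 arrays were all above the other groups. ARF4 rose in shr-5 by 0.69 against WT (SE 0.097, limma adjusted p = 0.00477), where 4.35% of all loci rose. Against scr-3 it rose by 0.75 (limma adjusted p = 0.0133), where 0.765% of loci were higher. The values without shr-5 replicate 3 were 0.69 and 0.75 (limma adjusted p = 0.00397 and 0.00950). Of the other 5 genes, AGO7, SGS3, RDR6, DCL4 and ARF3, 0 passed with all arrays, and RDR6 had the smallest value in shr-5, 0.039 (limma adjusted p = 0.823), which was -0.023 with a common median. AGO7, named after its values were seen, had 6.63, 6.24 and 5.35 in shr-5, 6.35, 6.03 and 6.23 in scr-3 and 6.001, 5.89 and 5.84 in WT. Without shr-5 replicate 3 it rose by 0.52 in shr-5 against WT (limma adjusted p = 0.0327), where 12.7% of all loci passed. In scr-3 against WT 0 of 6 genes passed, where 0.366% of all loci did. At an unadjusted p under 0.05 there was 1 of 6, against 11.0% of all loci (limma).

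**Figure D4:**
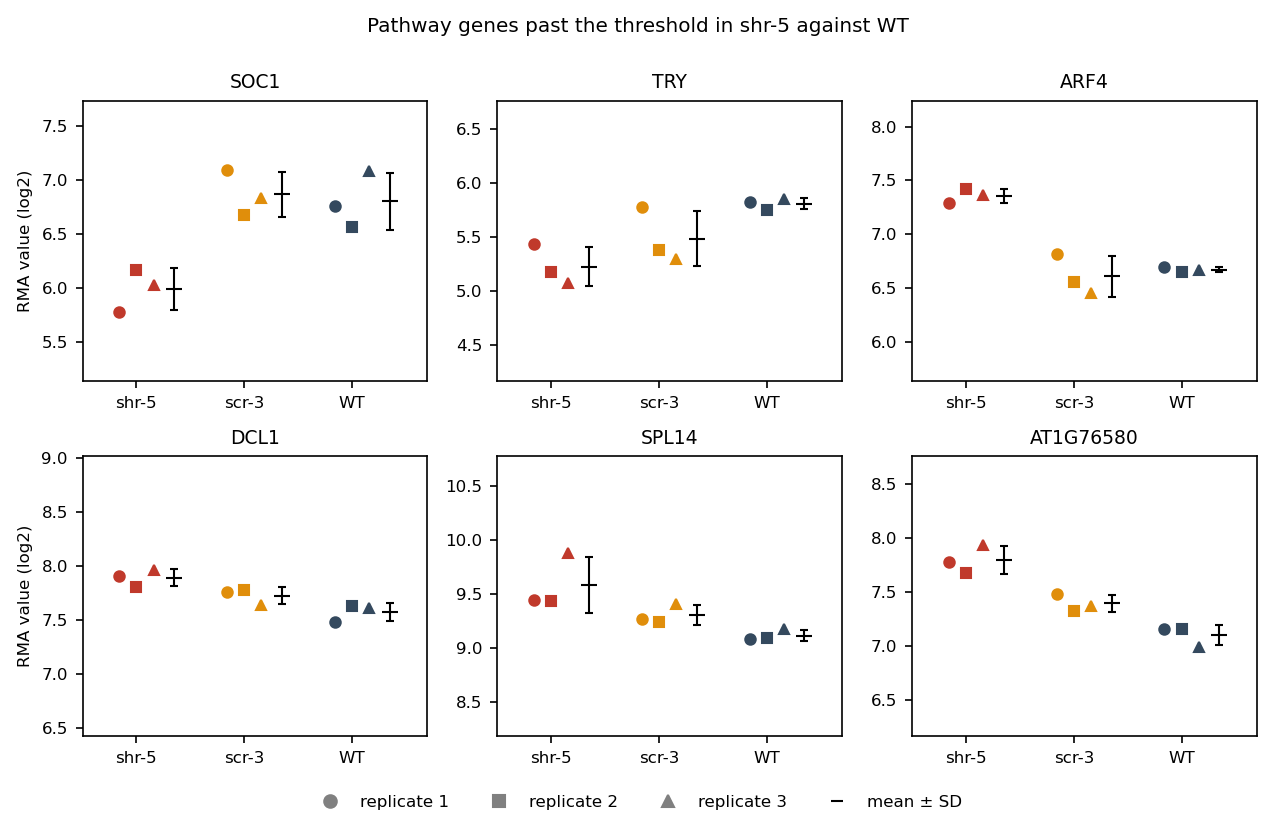
RMA values (log2) on each array of the 6 other pathway genes past the threshold in shr-5 against WT, by genotype; symbols mark replicates 1 to 3, and the bar gives the mean ± SD of 3 arrays. SOC1 and ARF4 separate the shr-5 arrays from both other groups, and AT1G76580 has scr-3 arrays between those of shr-5 and WT.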

How the data were processed

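Total RNA was hybridised to ATH1 arrays, 3 for each of shr-5, scr-3 and WT, grouped by sample title. The authors deposited log2 values made with RMA, per the submitters' processing notes; the RMA version and the mapping of probes to loci are not stated there. RMA in general corrects background, normalises quantiles between arrays and summarises probes. The log2 scale was read from the range of 2.90 to 14.03. The number of arrays limits the precision. No 2 arrays were identical.

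The test was limma 3.58.1 in R 4.3.3: 1 model over the 9 arrays with the 3 genotypes as groups, eBayes, and two-sided p-values adjusted by Benjamini and Hochberg over 20777 loci (threshold 0.05). SDs are over 3 arrays, and intervals are limma's at 95%. The labels call the repeats biological without saying whether plantings were separate, and p-values measure the spread between these samples. Names were checked against a RefSeq gene table of TAIR10.1 (20508 loci matched), where TOE1 is listed as RAP2.7 and AT1G76580 has no gene name. No coordinates are given, as the build is not stated.

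Members and gene lists (51 of 63 other loci measured) were chosen with earlier results of these data known. Named are all members, list genes past the threshold in any comparison, the largest rise and fall of each list in shr-5, SHR and SCR, and for 1 member of each family the 3 loci of nearest pattern. Deviations from group means correlated over 0.1 in all 3 same-numbered pairs of scr-3 and WT (0.277, 0.138 and 0.107). In shr-5 against WT this held for 1 of 3 pairs and in shr-5 against scr-3 for 2 of 3. The labels state no shared batch, and the main model has no term for replicate number. The p-values given for the main model therefore ignore any such pairing, which only the replicate block among the alternatives takes into account. Alternatives were the replicate block, the 2 compared groups alone, a common median, a second quantile normalisation, no loci in the lowest 40%, a prior that follows the mean, and each array left out in turn.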

Additional observations from a re-analysis of the deposited data

Results flagged for a closer look

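The effects of the 2 mutations differed for 3 of the 51 measured genes of the lists, by the direct comparison of shr-5 with scr-3 (limma). Of all loci 1.34% passed there, and the lists were chosen with earlier results of these data known. SOC1 was lower in shr-5 than in scr-3 by a log2 change of -0.88 (adjusted p = 0.0393, shr-5 arrays below scr-3 arrays in 3 of 3). ARF4 was higher by 0.75 (adjusted p = 0.0133, 3 of 3), and PYK10 was higher by 0.54 (adjusted p = 0.0195, 3 of 3). Arrays of the 2 mutants did not overlap for 10.2% of all loci on the higher side and 10.8% on the lower side. Over the alternatives the adjusted p reached 0.135 for SOC1, 0.0816 for ARF4 and 0.0859 for PYK10. SOC1 lost this call with the replicate block, with the 2 groups alone and without scr-3 replicate 1, 2 or 3, shr-5 replicate 1 or 2 or WT replicate 1. ARF4 lost it with the 2 groups alone and without scr-3 replicate 2, and PYK10 with the 2 groups alone and without scr-3 replicate 1, 2 or 3 or shr-5 replicate 2. None of the 10 members differed past the threshold between the mutants, with AP2 nearest at 0.51 (adjusted p = 0.101).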

How the results depend on the processing

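The count of members called was 0 in scr-3 against WT and 0 in shr-5 against scr-3 under all 15 alternatives. In shr-5 against WT it was 1 with all arrays and 0 to 2 when 1 array was left out: 0 without WT replicate 1, 2 or 3, 2 without shr-5 replicate 1 (AP2 and SNZ), 2 without shr-5 replicate 3 (AP2 and SMZ), and 1 without shr-5 replicate 2, where SPL4 passed and AP2 did not. With the replicate block the counts of members were 0, 1 and 0, and AP2 kept its call (adjusted p = 0.0395); of the calls in the report, those of DCL1 in shr-5 against WT and SOC1 in shr-5 against scr-3 were lost with it. Over all loci the count in scr-3 against WT was 76, against 577 with the 2 groups alone and 17 to 595 with 1 array left out (595 without shr-5 replicate 3). In shr-5 against WT it was 1691, against 807 with the 2 groups alone and 654 to 2643 with 1 array left out (2643 without shr-5 replicate 3), and in shr-5 against scr-3 it was 279, against 24 and 33 to 610. A common median for all arrays moved the median of all loci in shr-5 against WT by -0.062 and gave 1966 calls there, 34.9% of them higher against 53.5% as deposited, and in shr-5 against scr-3 37.2% higher against 57.0%. Signs that turned belonged to values that were not called. With a common median, SPL1 was -0.054 and RDR6 -0.023 in shr-5 against WT. With 1 array left out, values in scr-3 against WT ran from -0.077 to 0.037 for SPL4, -0.047 to 0.22 for AP2, -0.056 to 0.21 for SOC1, -0.17 to 0.015 for ARF4, -0.24 to 0.025 for SPL11, -0.031 to 0.11 for AGL18, -0.070 to 0.069 for FIE, -0.12 to 0.12 for HYL1, -0.17 to 0.047 for EXPA7, -0.092 to 0.064 for AP3 and -0.089 to 0.012 for SEP3. In shr-5 against WT they ran from -0.19 to 0.33 for SPL3, -0.27 to 0.093 for TOE1, -0.057 to 0.35 for SPL2, -0.061 to 0.10 for SPL1, -0.20 to 0.040 for HYL1, -0.035 to 0.092 for RDR6, -0.39 to 0.035 for EXPA7 and -0.61 to 0.042 for AT2G21830. In shr-5 against scr-3 they ran from -0.11 to 0.48 for SMZ, -0.29 to 0.12 for SPL2, -0.42 to 0.033 for SPL11, -1.002 to 0.82 for DFR, -0.31 to 0.11 for EXPA7, -0.13 to 0.038 for SEP3 and -0.076 to 0.18 for SCR. The causes of these shifts were not tested. With 3 arrays a group, the 95% intervals of the members reached 0.27 to 0.96 to either side of the change.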
